A study of Mus musculus with 23 samples.

Results

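Cytokine receptors that hand their signal to the kinase JAK2 were read as transcripts in blood stem and progenitor cells that carry the V617F form of JAK2 and in wild-type (WT) cells. The 9 receptor genes were taken by name from a count table of 24454 genes, and all 9 were found and passed the filter on low counts. They encode the erythropoietin receptor (Epor), the G-CSF receptor (Csf3r), the common beta chain (Csf2rb) and its relative Csf2rb2, the alpha chains for GM-CSF (Csf2ra) and IL-3 (Il3ra), the IL-6 signal transducer gp130 (Il6st), the IL-6 receptor (Il6ra) and the ligand-binding chain for interferon-gamma (Ifngr1).

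These receptors have no kinase of their own. JAK proteins sit on the part of the receptor inside the cell, ligand binding brings the chains together, and the activated JAK phosphorylates the receptor and STAT transcription factors. Epor and the G-CSF receptor work as homodimers, whereas the alpha chains for GM-CSF and IL-3 bind ligand and need a beta chain to signal. In mouse, Csf2rb serves GM-CSF, IL-3 and IL-5, and Csf2rb2 serves IL-3 alone. V617F is the JAK2 change of the myeloproliferative neoplasms, and it is known to depend on homodimeric receptors as a scaffold.

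V617F cells came from C57BL/6 mice of the genotype SclCre;V617F, in which Cre under control of Scl, a gene of blood-forming cells, switches the mutant on. Both genotypes received tamoxifen on 5 days, and marrow was sorted 12 weeks later. The groups were CD41-positive stem cells (V617F, 3 libraries; WT, 2), CD41-negative stem cells (V617F, 3; WT, 3), megakaryocyte progenitors (MkP; V617F, 3; WT, 3) and long-term stem cells not split by CD41 (LT-HSC; V617F, 3; WT, 3). Stem cells were gated as CD150-positive and CD48-negative among lineage-negative cells with Kit and Sca-1, and MkP were Sca-1-negative with CD150 and CD41. MkP and LT-HSC were made with SMART-Seq v2 and the CD41 fractions with SMART-Seq v4, and the protocols were never compared with each other. The V617F LT-HSC libraries were labelled male and the WT ones female, so sex and genotype cannot be told apart there; V617F library 2 of each CD41 fraction was male and every other library female. Ages, the Cre status of WT mice, and whether the libraries of a group came from separate mice are not given in the sources used here, so p-values measure the spread between these libraries, which may be technical.

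Total counts ran from 17.6 to 49.2 M per library. Itga2b, which encodes CD41, stood at 611 to 743 counts per M (CPM) in V617F and 794 to 916 CPM in WT CD41-positive cells, against 96.4 to 136 CPM in V617F and 148 to 232 CPM in WT CD41-negative cells. Ly6a, which encodes Sca-1, stayed at or under 2.57 CPM in every MkP library and at 42.4 CPM or more in every stem cell library. Cd48 stood at 6.21 to 9.67 CPM in V617F and 1.37 to 2.42 CPM in WT CD41-negative cells. In CD41-positive cells Cd48 stood at 3.64 to 9.28 CPM in V617F and 1.47 to 2.15 CPM in WT. Kit stood at 1540 to 1830 CPM in V617F and 1950 to 4000 CPM in WT CD41-negative cells. In CD41-positive cells Kit stood at 994 to 1210 CPM in V617F and 1360 to 1420 CPM in WT. Whether these differences bear on the receptor levels was not tested. WT LT-HSC and MkP libraries detected 11483 to 13805 genes, against 14634 to 15697 in the V617F libraries of the same populations. Among CD41-negative WT libraries, number 1 held granulocyte markers at a summed 593 CPM (116 and 168 CPM in numbers 3 and 4), and Lars2 took 1.38% and 1.68% of the counts in numbers 1 and 3, against 0.15% or less in all other libraries. A bulk level cannot tell fewer cells of a type from less RNA per cell. The V617F mutation is a point change and is not visible in gene counts, so the levels of Jak2 do not check the genotype labels.

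The beta chain genes lie on chromosome 15 and are near copies, which bears on how their reads can be told apart. Their longest open reading frames in the GENCODE transcripts (mouse build GRCm38) span 2691 bases for Csf2rb and 2637 for Csf2rb2, and 95.2% of 2631 aligned positions were identical. Of all 50-base windows of the Csf2rb transcript, 18.9% also occur in that of Csf2rb2, and 19.0% the other way round. The opening 120 coding bases, from the start codon on, show the degree of likeness, with the 4 letters that differ in capitals.
Csf2rb: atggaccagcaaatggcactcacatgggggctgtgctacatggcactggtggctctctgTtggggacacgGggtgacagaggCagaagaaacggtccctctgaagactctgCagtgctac
Csf2rb2: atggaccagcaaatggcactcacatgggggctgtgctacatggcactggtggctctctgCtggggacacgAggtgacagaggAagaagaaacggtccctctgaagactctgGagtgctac
Reads from such stretches may have been shared or dropped, and how the authors counted them was not given in the sources used here, so the split between these genes is uncertain and their sum is given beside it.

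Promoter windows are shown for Epor, Csf2rb2 and Csf3r, the 3 receptors that differed most between the CD41 fractions in V617F cells. RefSeq windows (build GRCm38.p6) were matched for 8 of the 9 receptors; Csf2rb has no entry. The 250 bases before each start are given in the direction of the gene, with capitals for the GATA letters AGATAA or TGATAA and for the STAT letters TTCNNNGAA, on either strand.
Epor, chr9:21963577-21963826, minus strand: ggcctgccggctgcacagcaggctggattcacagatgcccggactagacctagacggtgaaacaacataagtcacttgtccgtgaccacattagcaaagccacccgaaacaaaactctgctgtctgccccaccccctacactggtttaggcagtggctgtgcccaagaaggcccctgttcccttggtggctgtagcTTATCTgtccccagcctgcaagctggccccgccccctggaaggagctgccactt
Csf2rb2, chr15:78305722-78305971, minus strand: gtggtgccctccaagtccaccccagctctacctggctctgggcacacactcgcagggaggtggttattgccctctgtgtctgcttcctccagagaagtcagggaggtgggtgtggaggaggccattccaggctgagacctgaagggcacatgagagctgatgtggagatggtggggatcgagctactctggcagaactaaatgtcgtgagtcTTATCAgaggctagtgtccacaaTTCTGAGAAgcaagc
Csf3r, chr4:126024409-126024658, plus strand: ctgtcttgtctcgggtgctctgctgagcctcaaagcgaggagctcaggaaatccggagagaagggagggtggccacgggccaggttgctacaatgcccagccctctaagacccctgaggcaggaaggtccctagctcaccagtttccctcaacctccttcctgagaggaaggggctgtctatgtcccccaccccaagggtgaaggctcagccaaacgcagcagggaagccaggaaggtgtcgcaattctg
In windows of 300 bases (250 before and 50 after the start), the GATA letters were found for 3 receptors (Epor, Csf2rb2 and Il6ra) and in 18.6% of 32851 windows of the table. The STAT letters were found for 1 receptor, Csf2rb2, and in 8.3% of all windows. A match of letters is a description and says nothing about binding.

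Levels were first ordered within each group, per kb of transcript so that genes can be compared. Ifngr1 had the highest level in all 8 groups and did not overlap the next receptor in any of them. In CD41-positive cells the order went on with Epor (25.2 ± 4.46 CPM per kb in V617F, SD, n = 3; 27.2 ± 0.163 in WT, n = 2) and Csf2ra (20.3 ± 0.452 in V617F and 22.2 ± 1.58 in WT). In CD41-negative cells Epor stood far lower in the order. There, V617F cells had Csf3r next after Ifngr1 at 32.1 ± 4.04 CPM per kb, apart from the others, then Csf2ra (22.7 ± 1.3) and Csf2rb (20.4 ± 2.24), which overlapped. WT CD41-negative cells had Csf2ra (36.3 ± 9.71) and Csf3r (33.2 ± 5.56), which overlapped, and Csf2rb only at 8.42 ± 3.25, within the range of Epor (11.4 ± 4.49) and Il3ra (7.32 ± 2.35). MkP of both genotypes had Epor and Csf2ra after Ifngr1, at 24.5 ± 2.1 and 13.3 ± 0.408 CPM per kb in V617F and 32.1 ± 7.41 and 27 ± 3.34 in WT. In LT-HSC, Csf3r, Csf2ra and Epor followed Ifngr1 and overlapped one another in both genotypes. Without division by length, Ifngr1 was again first in all 8 groups, but only 28 of all 72 ranks stayed the same.

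What V617F does to its own receptors was asked in the CD41 fractions first, where the spread was smaller. Csf2rb, the beta chain of the GM-CSF, IL-3 and IL-5 receptors, was higher in V617F cells of both fractions. In CD41-positive cells it stood at 35, 30.3 and 26.8 CPM in V617F against 11 and 6.55 CPM in WT. In CD41-negative cells it stood at 107, 86 and 97.8 CPM in V617F against 36.1, 57.2 and 27 CPM in WT. The V617F libraries lay above every WT library of their fraction. By edgeR's quasi-likelihood test with Benjamini-Hochberg adjustment over all genes, Csf2rb was 3.49-fold higher in CD41-positive cells (log2 1.80 ± 0.30 SE, adjusted p = 0.0136) and 2.42-fold higher in CD41-negative cells (log2 1.27 ± 0.25, adjusted p = 0.0132). Of 11 monocyte and macrophage markers tested, 2 were higher and 4 lower in V617F CD41-negative cells (summed 438 to 481 CPM in V617F and 435 to 519 CPM in WT), and 0 passed in CD41-positive cells (347 to 376 CPM in V617F and 384 to 399 CPM in WT). Of 6 mast cell and basophil markers tested, 1 was lower and 0 higher in V617F CD41-negative cells and 0 passed in CD41-positive cells. The summed level of all 12 was 663 to 820 CPM in V617F and 328 to 747 CPM in WT CD41-negative cells, and 802 to 929 CPM in V617F and 763 to 813 CPM in WT CD41-positive cells, with overlap in each. Mcpt4, Cma1 and Prss34 were at 0 in every library of the CD41 fractions. The part of such cells was not tested.

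The CD41-positive call of Csf2rb ended without V617F library 1 (log2 1.70, adjusted p = 0.0527) or WT library 4 (log2 1.47, adjusted p = 0.174). The CD41-negative call ended without V617F library 1 (log2 1.18, adjusted p = 0.0553). Without CD41-negative WT libraries 1 and 3 log2 was 1.83, but WT library 4 alone was left, so spread within WT is not measured there.

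Csf2rb was the 1 receptor of 9 that rose in either fraction, where 0.221% of 14467 genes were higher in V617F CD41-positive cells and 5.48% in V617F CD41-negative cells. No receptor fell in CD41-positive cells, where 0.94% of genes were lower. An unadjusted p under 0.05 was found for 4 of 9 receptors and 1538 of 14467 genes (edgeR). DESeq2 and limma-voom called Csf2rb and no other receptor, among 441 and 119 genes called. Groups did not overlap in 6 of 9 receptors. The share of all genes was not taken, so that count is not read as a trait of the receptors. In CD41-negative cells 2 of 9 fell, Epor and Csf2ra, where 7.94% of all genes were lower. The median log2 change over the receptors was -0.13 in CD41-positive and -0.48 in CD41-negative cells, beside 0.03 and -0.01 over all genes.

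**Figure D1:**
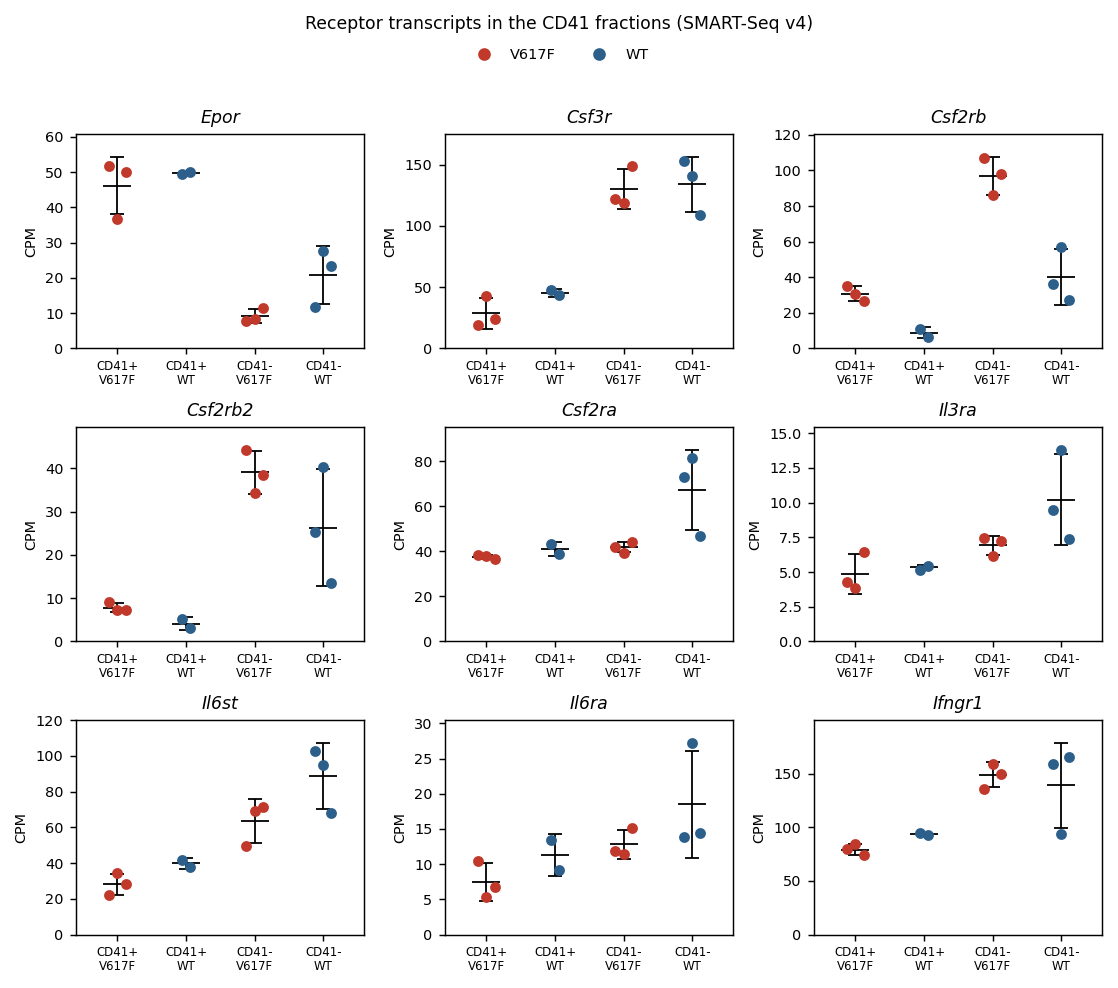
Levels of the 9 receptor transcripts in the CD41 fractions, in CPM on a linear axis for each gene; points are libraries, and the line and bars are the mean and SD (n = 3, or 2 for WT CD41-positive cells). Csf2rb lies higher in V617F than in WT within each fraction, and Epor is the receptor whose level is higher in CD41-positive than in CD41-negative cells.

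Csf2rb2, the IL-3 beta chain of the mouse, pointed the same way without passing. It stood at 9.11, 7.23 and 7.17 CPM in V617F and 5.18 and 3.1 CPM in WT CD41-positive cells, groups that did not overlap (log2 0.92 ± 0.38, adjusted p = 0.401, edgeR). In CD41-negative cells it stood at 44.3, 34.4 and 38.6 CPM in V617F and 25.2, 40.3 and 13.4 CPM in WT, which overlapped through WT library 3 (log2 0.57 ± 0.31, adjusted p = 0.192). With the counts of both beta chains summed, the edgeR calls stayed, at log2 1.58 in CD41-positive (adjusted p = 0.0361) and 1.04 in CD41-negative cells (adjusted p = 0.0307).

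The share of beta chain counts that fell on Csf2rb did not overlap between genotypes in either fraction. It was 79.3%, 80.7% and 78.9% in V617F against 68.1% and 67.9% in WT CD41-positive cells. In CD41-negative cells it was 70.8%, 71.4% and 71.7% in V617F against 58.9%, 58.7% and 66.8% in WT. The 95% exact binomial interval of the lowest V617F CD41-negative share was 69.4 to 72.1%, and that of the highest WT share 63.4 to 70%. A 2-sided exact permutation test over libraries gave p = 0.1 in each fraction, the smallest value these group sizes allow. In LT-HSC the share overlapped, at 70.7, 75.5 and 63.8% in V617F and 88.2 (of 17 counts), 42.9 and 41% in WT. It overlapped in MkP too, at 85.7, 77.5 and 93.7% in V617F and 100 and 90.9% in the WT libraries with counts. The share reuses the Csf2rb counts above and is not a separate measure of them.

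Csf2rb was also set against the GM-CSF alpha chain, which reuses the Csf2rb counts above and is not a separate measure of them. In CD41-negative cells Csf2ra was itself lower in V617F (log2 -0.68), so the ratio there holds that fall too. Csf2rb over Csf2ra, per kb, was 0.316 ± 0.0365 in V617F and 0.0822 ± 0.0242 in WT CD41-positive cells, and 0.897 ± 0.0793 in V617F and 0.229 ± 0.0403 in WT CD41-negative cells (SD; exact permutation p = 0.1 in each, the smallest possible). The ratio of gp130 to the IL-6 receptor showed no such separation: it was 2.64 ± 1.35 in V617F and 2.25 ± 0.438 in WT CD41-positive cells (exact permutation p = 0.7) and 3.09 ± 0.602 in V617F and 3.25 ± 1.28 in WT CD41-negative cells (exact permutation p = 0.8).

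**Figure D2:**
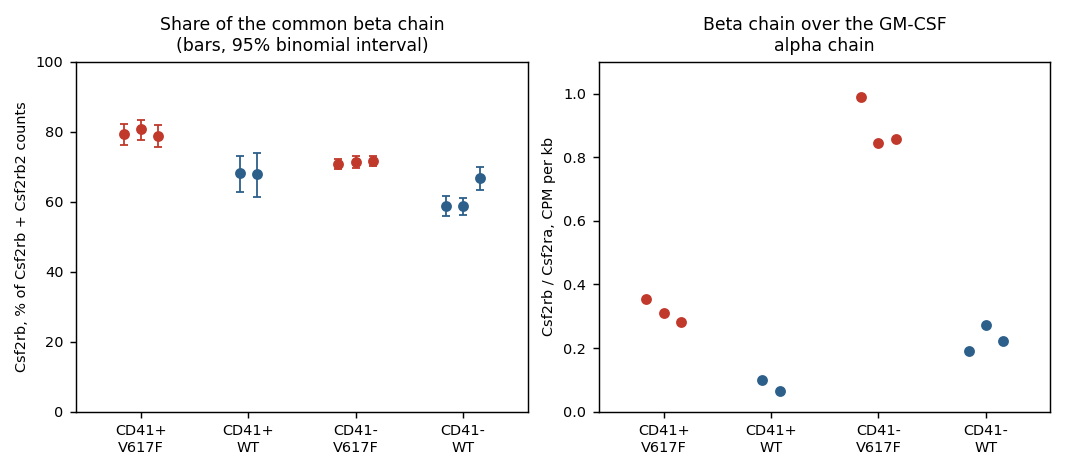
Left, percent of Csf2rb and Csf2rb2 counts that fell on Csf2rb, per library with its 95% exact binomial interval; right, Csf2rb over Csf2ra in CPM per kb, per library (red, V617F; blue, WT). V617F libraries lie above the WT libraries of their fraction in both panels, with ratios of 0.283 to 0.355 against 0.0651 to 0.0993 in CD41-positive cells.

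The alpha chains did not rise with the beta chain. Csf2ra, which binds GM-CSF, stood at 42.1, 39.5 and 44.3 CPM in V617F against 72.9, 81.5 and 47 CPM in WT CD41-negative cells. These groups did not overlap, but WT library 4 lay close to the V617F range, and the fall was 1.6-fold (log2 -0.68 ± 0.17, adjusted p = 0.0283, edgeR). The call rested on WT libraries 1 and 3: without them, with WT library 4 alone left, log2 was -0.18. The call ended in 8 of 16 alternatives, 5 of them single omissions (adjusted p = 0.0743 to 0.105). In CD41-positive cells Csf2ra stood at 38.2, 38 and 36.7 CPM in V617F and 43.2 and 39 CPM in WT (log2 -0.13 ± 0.19, adjusted p = 0.859). Il3ra, which binds IL-3, was among the lowest receptors, at 3.84 to 6.47 CPM in V617F and 5.18 to 5.47 CPM in WT CD41-positive cells, and 6.16 to 7.43 CPM in V617F and 7.35 to 13.8 CPM in WT CD41-negative cells, with overlap in each fraction (adjusted p = 0.913 and 0.137).

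Epor, the receptor through which erythropoietin drives red cell formation, was lower in V617F CD41-negative cells. It stood at 7.84, 8.45 and 11.5 CPM in V617F against 11.7, 27.5 and 23.4 CPM in WT. The groups did not overlap, yet V617F library 3 and WT library 1 were next to each other. The fall was 2.25-fold (log2 -1.17 ± 0.27, adjusted p = 0.0226, edgeR). It lost its call without WT library 3 (log2 -0.92, adjusted p = 0.0869), V617F library 1 (-1.08, 0.0784) or V617F library 2 (-1.11, 0.0707). The call also ended without both male libraries (-1.11, 0.0826) and when only these groups were fitted (-1.17, 0.0857). Without WT libraries 1 and 3 log2 was -1.35, but WT library 4 alone was left, so spread within WT is not measured there. In CD41-positive cells Epor stood at 51.8, 36.8 and 49.9 CPM in V617F and 49.5 and 49.9 CPM in WT, which overlapped (log2 -0.11 ± 0.29, adjusted p = 0.931). Beside this, 9 of 16 erythroid markers were lower in V617F CD41-negative cells and 0 higher, with a summed 1830 to 2010 CPM in V617F and 1970 to 4060 CPM in WT and Slc4a1 at 0 in all V617F libraries. In V617F CD41-positive cells 5 of 16 were lower and 0 higher, at 2610 to 2890 CPM in V617F and 2780 to 2910 CPM in WT. Megakaryocyte markers were lower in 6 of 14 and higher in 0 in V617F CD41-negative cells, with a median log2 change of -0.72 and a summed 943 to 1120 CPM in V617F and 1560 to 1680 CPM in WT. In CD41-positive cells 0 of 14 passed. The part of these transcripts in the Epor levels was not tested.

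The G-CSF receptor did not pass between genotypes in either fraction. Csf3r stood at 122, 119 and 149 CPM in V617F and 153, 141 and 109 CPM in WT CD41-negative cells (log2 -0.05 ± 0.24, adjusted p = 0.894). It stood at 19, 43.1 and 23.8 CPM in V617F against 47.9 and 43.3 CPM in WT CD41-positive cells, where V617F library 2 reached nearly to WT (log2 -0.67 ± 0.27, adjusted p = 0.369). Without that library, or without both male libraries of the CD41 fractions, Csf3r was called as a second receptor. Over its 14 alternatives the log2 value ran from -1.09 to -0.45, with a lowest adjusted p of 0.0176.

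Gp130, the IL-6 receptor and the interferon-gamma receptor did not pass between genotypes in the CD41 fractions either. Il6st stood at 22.1 to 34.2 CPM in V617F and 37.7 to 41.9 CPM in WT CD41-positive cells, apart from each other (log2 -0.50 ± 0.22, adjusted p = 0.434), and at 49.6 to 71.5 CPM in V617F and 68.2 to 103 CPM in WT CD41-negative cells, with overlap (log2 -0.48 ± 0.20, adjusted p = 0.0974). Il6ra stayed low and overlapped, at 5.28 to 10.5 CPM in V617F and 9.13 to 13.4 CPM in WT CD41-positive cells and 11.4 to 15.1 CPM in V617F and 13.8 to 27.2 CPM in WT CD41-negative cells (adjusted p = 0.587 and 0.215). Ifngr1 stood at 73.7 to 84 CPM in V617F and 92.4 to 94.5 CPM in WT CD41-positive cells (log2 -0.24 ± 0.19, adjusted p = 0.72) and at 136 to 159 CPM in V617F and 93.9 to 165 CPM in WT CD41-negative cells (log2 0.09 ± 0.17, adjusted p = 0.715).

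**Figure D3:**
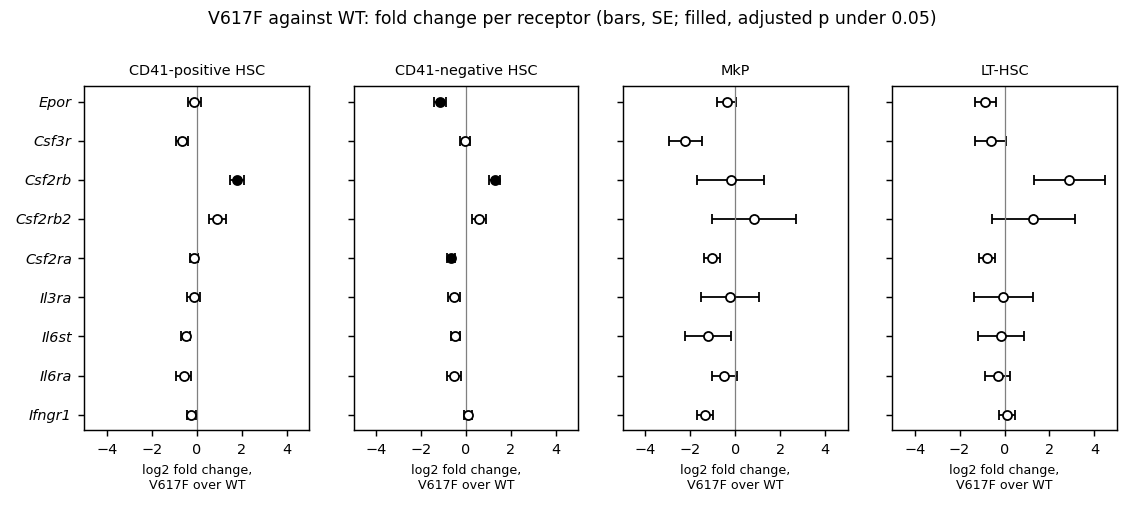
Fold change of V617F over WT for each receptor in the 4 populations, on the log2 scale; points are edgeR estimates, bars are 1 SE, and filled points have an adjusted p under 0.05. The filled points are Csf2rb at 1.80 and 1.27 in the CD41 fractions and Epor (-1.17) and Csf2ra (-0.68) in CD41-negative cells, and bars are wider in MkP and LT-HSC.

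How the receptors differ between CD41-positive cells, the fraction that carries the megakaryocyte marker, and CD41-negative cells was compared within each genotype. Epor was the receptor that rose, and 5 of 9 receptors fell in V617F and 7 of 9 in WT. Over all genes 16.4% were higher and 17.9% lower in V617F, and 15.7% higher and 18.2% lower in WT. The median log2 change of the receptors was -0.91 in V617F and -0.94 in WT, beside -0.02 and -0.04 over all genes. These comparisons use the same libraries as those between genotypes. In 8 of 9 receptors the fractions did not overlap, in V617F as in WT. The share of all genes without overlap was not counted, so this is not read as a trait of the receptors.

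Epor was 4.98-fold higher in CD41-positive than in CD41-negative V617F cells (46.2 ± 8.15 against 9.27 ± 1.96 CPM, SD, n = 3 each; log2 2.32 ± 0.27 SE, adjusted p = 6.55e-05, edgeR). In WT it was 2.38-fold higher (49.7 ± 0.298 CPM, n = 2, against 20.9 ± 8.21 CPM, n = 3; log2 1.25 ± 0.29, adjusted p = 0.00693), a call that ended without CD41-positive WT library 4 (adjusted p = 0.0565). Each CD41-positive library, from 36.8 to 51.8 CPM, lay above each CD41-negative library, from 7.84 to 27.5 CPM. The erythroid markers did not move one way: 5 of 16 were higher and 2 lower in V617F, and 3 higher and 3 lower in WT. Megakaryocyte markers were higher in 12 of the 14 tested and lower in 0 in both genotypes, with a summed 2580 to 3630 CPM in V617F and 4020 to 4250 CPM in WT CD41-positive cells against 943 to 1120 CPM in V617F and 1560 to 1680 CPM in WT CD41-negative cells. The megakaryocyte markers include Itga2b, the gene of the marker by which the fractions were sorted. Its place in that count and sum is not independent of the gate. The part of these transcripts in the Epor difference was not tested.

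The G-CSF receptor and both beta chains were lower in CD41-positive cells. Csf3r, which drives neutrophil production, stood at 28.6 ± 12.7 against 130 ± 16.3 CPM in V617F (log2 -2.18 ± 0.25, adjusted p = 5.31e-05) and at 45.6 ± 3.26 against 134 ± 22.5 CPM in WT (log2 -1.56 ± 0.28, adjusted p = 0.00198). Csf2rb stood at 30.7 ± 4.11 against 97 ± 10.7 CPM in V617F (log2 -1.66 ± 0.25, adjusted p = 0.000352) and at 8.8 ± 3.18 against 40.1 ± 15.5 CPM in WT (log2 -2.19 ± 0.31, adjusted p = 0.00043). Csf2rb2 stood at 7.84 ± 1.1 against 39.1 ± 5.01 CPM in V617F (log2 -2.32 ± 0.33, adjusted p = 0.000231) and at 4.14 ± 1.47 against 26.3 ± 13.5 CPM in WT (log2 -2.67 ± 0.40, adjusted p = 0.000616). These 3 receptors kept their calls in every alternative run, in both genotypes. Of 13 granulocyte markers tested, 1 was lower and 0 higher in V617F, and 6 were lower and 0 higher in WT. Their summed level was 54.4 to 141 CPM in V617F and 86.6 to 94.1 CPM in WT CD41-positive cells, against 170 to 204 CPM in V617F and 116 to 593 CPM in WT CD41-negative cells, and none of the 16 was at 0 throughout a group. Of 11 monocyte and macrophage markers tested, 3 were lower and 0 higher in each genotype. Their summed level was 347 to 376 CPM in V617F and 384 to 399 CPM in WT CD41-positive cells, against 438 to 481 CPM in V617F and 435 to 519 CPM in WT CD41-negative cells, without overlap. The part of these transcripts in the receptor levels was not tested.

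Gp130 and the interferon-gamma receptor were lower as well. Il6st stood at 28.1 ± 6.05 against 63.5 ± 12.1 CPM in V617F (log2 -1.17 ± 0.20, adjusted p = 0.000793) and at 39.8 ± 2.97 against 88.8 ± 18.4 CPM in WT (log2 -1.16 ± 0.23, adjusted p = 0.00323). Ifngr1 stood at 79.1 ± 5.19 against 149 ± 11.6 CPM in V617F (log2 -0.91 ± 0.17, adjusted p = 0.00171) and at 93.5 ± 1.5 against 139 ± 39.4 CPM in WT, where CD41-negative library 3 lay within the CD41-positive range (log2 -0.58 ± 0.20, adjusted p = 0.0396). In WT the Il6st call ended without CD41-positive library 4 (adjusted p = 0.0526) or CD41-negative libraries 1 and 3 (log2 -0.78, adjusted p = 0.0647). The WT call of Ifngr1 ended in 8 of 15 alternatives, 4 of them omissions of a single WT library, with adjusted p up to 0.185.

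The alpha chains were lower in WT CD41-positive cells and did not pass in V617F. Csf2ra stood at 37.6 ± 0.836 against 42 ± 2.4 CPM in V617F (log2 -0.16 ± 0.17, adjusted p = 0.504) and at 41.1 ± 2.92 against 67.2 ± 17.9 CPM in WT (log2 -0.71 ± 0.19, adjusted p = 0.0149). Without CD41-negative WT libraries 1 and 3 the WT value was -0.20 (adjusted p = 0.368), and single omissions of CD41-positive library 3 or 4 also ended the call (adjusted p = 0.0681 and 0.128). Il3ra stood at 4.86 ± 1.41 against 6.94 ± 0.686 CPM in V617F (log2 -0.51 ± 0.26, adjusted p = 0.147) and at 5.33 ± 0.205 against 10.2 ± 3.28 CPM in WT (log2 -0.94 ± 0.30, adjusted p = 0.029). That WT call ended without CD41-positive library 3 (0.146) or 4 (0.135) or CD41-negative library 3 (0.0953), and without CD41-negative libraries 1 and 3 (log2 -0.47, adjusted p = 0.342). Il6ra did not pass, at 7.49 ± 2.68 against 12.8 ± 2.01 CPM in V617F (log2 -0.78 ± 0.31, adjusted p = 0.0666) and 11.3 ± 3.01 against 18.5 ± 7.61 CPM in WT (log2 -0.71 ± 0.34, adjusted p = 0.122). With V617F libraries of equal number paired as a block, the V617F value of Il6ra was called (log2 -0.81, adjusted p = 0.0159), which made 7 receptors.

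**Figure D4:**
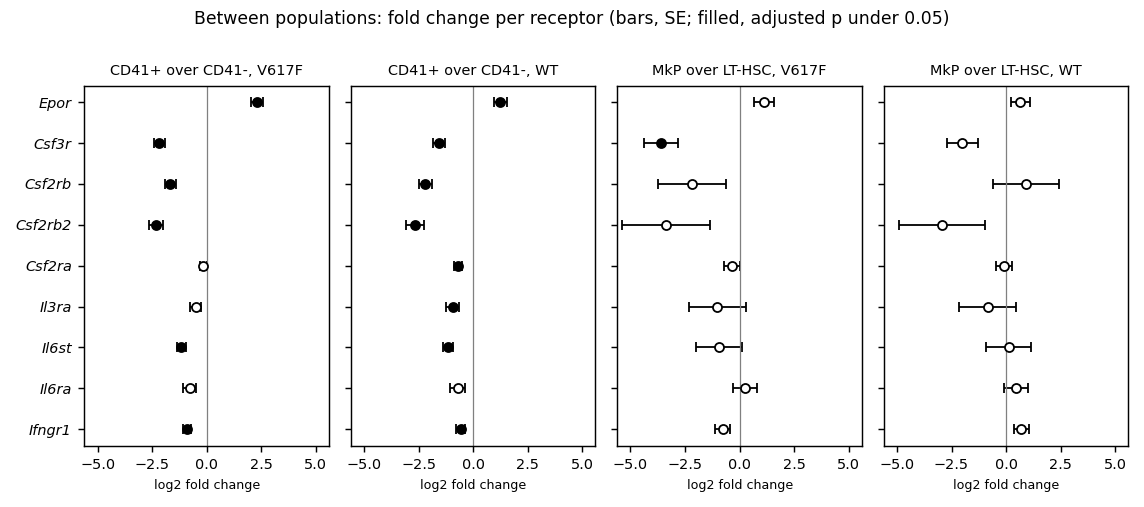
Fold change between populations for each receptor on the log2 scale, within V617F and within WT; points are edgeR estimates, bars are 1 SE, and filled points have an adjusted p under 0.05. Epor lies to the right of 0 in both CD41 panels (2.32 and 1.25) while the called receptors among the others lie to the left, and Csf3r is the called receptor between MkP and LT-HSC (-3.60 in V617F).

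Whether the V617F change itself differs between the CD41 fractions was tested as an interaction. Of 9 receptors 0 passed, as did 0% of 14467 genes by edgeR; 2 receptors and 1274 genes had an unadjusted p under 0.05, DESeq2 called 6 genes and 0 receptors, and limma-voom called 0 receptors. The V617F change of Epor was higher in CD41-positive than in CD41-negative cells by log2 1.06 ± 0.39 (adjusted p = 0.566, edgeR) and that of Csf2ra by 0.55 ± 0.25 (adjusted p = 0.566). Csf2rb had a difference of 0.53 ± 0.38 (adjusted p = 0.614). Without CD41-negative WT library 4, 1 receptor was called, Csf2ra (adjusted p = 0.0113), and 1766 genes. Over 20 alternatives its log2 value ran from 0.05 to 0.75.

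In MkP and LT-HSC, made with the earlier protocol, 0 receptors passed between genotypes by edgeR. In MkP 1.62% of 14281 genes were higher and 0.126% lower in V617F by edgeR. An unadjusted p under 0.05 was found for 3 receptors and 2187 genes. DESeq2 called 3 receptors and 1383 genes there, and limma-voom 1 receptor and 878 genes. In LT-HSC 0.028% of genes were higher and 0.035% lower in V617F by edgeR. There 0 receptors and 1762 genes had an unadjusted p under 0.05. DESeq2 called 1 receptor and 623 genes in LT-HSC, and limma-voom 0 receptors and 316 genes. The median log2 change of the receptors was -0.49 in MkP and -0.16 in LT-HSC, beside 0.08 and -0.05 over all genes.

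In MkP the receptors with unadjusted p under 0.05 were all lower in V617F, with groups that did not overlap. Ifngr1 stood at 135, 152 and 151 CPM in V617F against 380, 446 and 298 CPM in WT (log2 -1.36 ± 0.36, adjusted p = 0.0797, edgeR). Csf3r stood at 5.72, 5.76 and 5.58 CPM in V617F against 13.1, 39.3 and 27.4 CPM in WT (log2 -2.22 ± 0.72, adjusted p = 0.137). Csf2ra stood at 24.7, 23.7 and 25.2 CPM in V617F against 47.1, 45.7 and 57 CPM in WT (log2 -1.03 ± 0.36, adjusted p = 0.169). These are values below WT in 3 of 3 libraries without a call in the main edgeR fit. Over 12 alternatives each, Ifngr1 was called in 3, Csf3r in 1 and Csf2ra in 1. Beside them, granulocyte markers summed to 1170 to 2670 CPM in V617F and 8480 to 12400 CPM in WT MkP, with 0 of 16 higher and 1 lower, and none at 0 throughout a group. Their part in the receptor levels was not tested. Epor overlapped, at 48.1, 45.7 and 40.6 CPM in V617F and 44.4, 60.4 and 71.3 CPM in WT MkP (log2 -0.39 ± 0.44, adjusted p = 0.816).

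Several receptors stood at or near 0 in single WT libraries of these populations. Csf2rb had 0 counts in WT MkP library 31 but 2.5 and 30.1 CPM in libraries 30 and 32, beside 11.6, 10.4 and 6.17 CPM in V617F MkP. Csf2rb2 had 0 counts in WT MkP libraries 30 and 31 and 3 CPM in library 32, beside 1.93, 3.03 and 0.413 CPM in V617F MkP. Il3ra had 0 counts in WT MkP library 32, with 8.37 and 5.93 CPM in the others, beside 2.89 to 5.62 CPM in V617F. Il6st ranged over 68.8, 21.2 and 1.4 CPM in WT MkP, beside 19.6, 14.2 and 5.46 CPM in V617F. In these 3 WT libraries the same gene could thus be absent from the counts in one and well measured in the next, and fold changes of the low receptors had SEs of 1.04 to 1.86 on the log2 scale in MkP.

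In LT-HSC the beta chain again stood apart between genotypes, without a call. Csf2rb stood at 35.3, 47.6 and 44.9 CPM in V617F against 0.61, 11.5 and 5.15 CPM in WT (log2 2.89 ± 1.60, adjusted p = 0.514, edgeR). Csf2rb2 stood at 14.6, 15.4 and 25.5 CPM in V617F and 0.0814, 15.3 and 7.42 CPM in WT, where WT library 31 lay within the V617F range (log2 1.28 ± 1.86, adjusted p = 0.908). Csf2ra was lower, at 28.4, 35.1 and 30.4 CPM in V617F against 43.5, 69.1 and 47.2 CPM in WT, without overlap (log2 -0.77 ± 0.36, adjusted p = 0.42). Epor stood at 18.6, 31.6 and 12.2 CPM in V617F and 45.8, 42 and 24.3 CPM in WT, with overlap (log2 -0.85 ± 0.45, adjusted p = 0.488). Csf3r spread widely in WT, at 12.5, 148 and 158 CPM, around the V617F values of 63.7, 58.6 and 84.5 CPM (log2 -0.62 ± 0.69, adjusted p = 0.849). Ifngr1 stood at 225 to 279 CPM in V617F and 118 to 357 CPM in WT (log2 0.12 ± 0.36, adjusted p = 0.968), and Il6ra, Il6st and Il3ra overlapped too (adjusted p = 0.938 to 1). Granulocyte markers summed to 482 to 1200 CPM in V617F and 3810 to 6960 CPM in WT LT-HSC, and their part in these values was not tested.

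**Figure D5:**
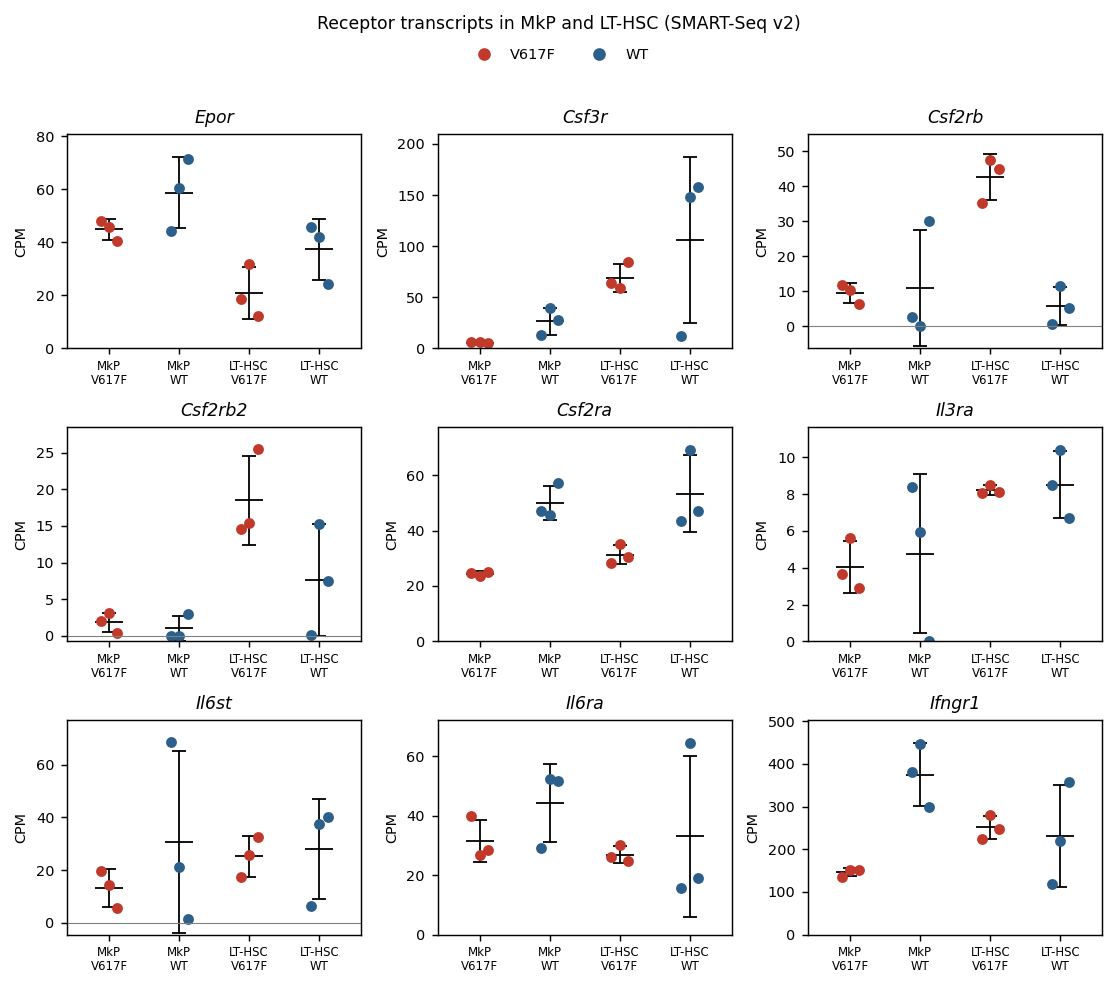
Levels of the 9 receptor transcripts in MkP and LT-HSC, in CPM on a linear axis for each gene; points are libraries, and the line and bars are the mean and SD (n = 3). WT libraries spread more than V617F libraries in many panels, for example 12.5 to 158 CPM for Csf3r in WT LT-HSC against 58.6 to 84.5 CPM in V617F LT-HSC.

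Between MkP and LT-HSC, 1 receptor passed in V617F and 0 in WT. In V617F 0.378% of genes were higher and 0.714% lower in MkP, and in WT 2.32% were higher and 6.58% lower. The V617F MkP libraries were labelled female and the V617F LT-HSC libraries male, so sex and population cannot be told apart in V617F. Csf3r was 12.1-fold lower in V617F MkP (5.72, 5.76 and 5.58 CPM) than in V617F LT-HSC (63.7, 58.6 and 84.5 CPM), with log2 -3.60 ± 0.76 and adjusted p = 0.0474 by edgeR. Leaving out any 1 of the 6 libraries ended that call (adjusted p = 0.131 to 0.243, log2 -3.70 to -3.39), as did limma-voom (adjusted p = 0.372). In WT Csf3r stood at 26.6 ± 13.1 CPM in MkP and 106 ± 81.4 CPM in LT-HSC, with overlap through LT-HSC library 30 (log2 -2.0 ± 0.71, adjusted p = 0.0954). In WT 1 receptor and 3856 of 14281 genes had an unadjusted p under 0.05 (edgeR). DESeq2 called 1 receptor and 2985 genes, and limma-voom 0 receptors and 1690 genes. Of 16 granulocyte markers tested in V617F, 2 were higher in MkP and 0 lower, with a median log2 change of -0.55 (-0.06 over all genes) and a summed 1170 to 2670 CPM in MkP and 482 to 1200 CPM in LT-HSC; their part in the Csf3r difference was not tested.

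The other receptors did not pass between MkP and LT-HSC. Populations did not overlap in 7 of 9 receptors in V617F and in 0 of 9 in WT. The share of all genes without overlap was not counted, so neither count is read as a trait of the receptors or of a genotype. Epor pointed upwards, at 44.8 ± 3.85 CPM in MkP and 20.8 ± 9.89 CPM in LT-HSC in V617F (log2 1.11 ± 0.45, adjusted p = 0.381) and 58.7 ± 13.5 CPM in MkP and 37.4 ± 11.5 CPM in LT-HSC in WT (log2 0.65 ± 0.44, adjusted p = 0.386). Csf2rb stood at 9.4 ± 2.86 CPM in MkP and 42.6 ± 6.48 CPM in LT-HSC in V617F (log2 -2.18 ± 1.56, adjusted p = 0.793) and 10.9 ± 16.7 CPM in MkP and 5.75 ± 5.47 CPM in LT-HSC in WT (log2 0.91 ± 1.5, adjusted p = 0.762). The median log2 change of the receptors was -0.94 in V617F and 0.12 in WT, beside -0.06 and -0.20 over all genes. A difference of the V617F change between MkP and LT-HSC was called for 0 receptors by edgeR, DESeq2 and limma-voom. By edgeR 0.455% of genes passed. An unadjusted p under 0.05 was found for 1 receptor and 1250 of 14281 genes (edgeR). That receptor was Ifngr1 (log2 -1.48 ± 0.51, adjusted p = 0.367, edgeR).

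Other parts of the pathway were read from lists of named genes in the same fits. The shares of all genes called, given above for each comparison, are the background of these counts: in V617F CD41-negative cells 5.48% were higher and 7.94% lower. Of 17 genes listed as inhibitors of receptor signalling, 2 rose and 0 fell in V617F CD41-negative cells. Both are known STAT5 targets that feed back on these receptors: Socs2 stood at 189 ± 35.3 CPM in V617F against 27.1 ± 7.94 CPM in WT (log2 2.80, adjusted p = 3.21e-05), and Cish at 191 ± 49.4 against 89.2 ± 19.1 CPM (log2 1.1, adjusted p = 0.0201, edgeR). In V617F CD41-positive cells Socs2 alone rose, at 96 ± 13.6 CPM against 23.1 ± 1.83 CPM in WT (log2 2.06, adjusted p = 0.0015), and in V617F MkP Socs3 alone, at 2.6 ± 2.54 CPM with 0 counts in all WT libraries. In LT-HSC 0 of 17 passed. Of 11 kinases and STATs, 3 fell and 0 rose in V617F CD41-negative cells, among them Jak3 at 314 ± 36.3 CPM in V617F against 520 ± 169 CPM in WT (log2 -0.73, adjusted p = 0.0457, edgeR) and Stat2 at 87.1 ± 12.2 CPM in V617F against 118 ± 13.9 CPM in WT (log2 -0.44, adjusted p = 0.0494). None passed between genotypes in the other populations. Jak2 itself did not pass in any, at 236 ± 19.8 CPM in V617F and 217 ± 28.2 CPM in WT CD41-negative cells, and 192 ± 17.9 CPM in V617F and 179 ± 19.8 CPM in WT CD41-positive cells. Its level was 115 ± 13.1 CPM in V617F and 41.9 ± 5.47 CPM in WT MkP (adjusted p = 0.0757, edgeR), and 82.2 ± 21.5 CPM in V617F and 24.8 ± 11.1 CPM in WT LT-HSC (adjusted p = 0.149), without overlap in either.

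Among the ligands, 5 of 12 were measured well enough to test in the CD41 fractions. Osm, which encodes oncostatin M, a ligand of gp130 complexes, rose in V617F CD41-negative cells, at 15.6 ± 2.13 CPM against 8.23 ± 1.75 CPM in WT (log2 0.92, adjusted p = 0.0166, edgeR). Il6 passed at a trace level, 0.294 ± 0.0648 CPM in V617F and 0 counts in all 3 WT libraries. In CD41-positive cells, MkP and LT-HSC 0 ligands passed between genotypes.

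Further receptors that use JAK2 went down where they passed. Of 11 tested, 3 fell and 0 rose in V617F CD41-negative cells: Il27ra, an IL-27 receptor chain that pairs with gp130 (69.9 ± 1.23 CPM in V617F against 113 ± 10.8 CPM in WT, adjusted p = 0.00344, edgeR), Crlf2 (31.8 ± 2.73 against 60.2 ± 23 CPM, adjusted p = 0.0299) and Osmr, at 0 CPM in V617F and 0.533 ± 0.418 CPM in WT. In V617F CD41-positive cells 2 of 11 fell, Osmr (0.0166 ± 0.0288 CPM in V617F against 2.17 ± 0.873 CPM in WT) and the leptin receptor Lepr (0.0949 ± 0.164 against 2.46 ± 0.317 CPM), both at low levels. Lepr is also among the endothelial and stromal markers, of which 2 of 7 tested were lower and 0 higher there. These markers summed to 55.4 to 72.5 CPM in V617F and 94.2 to 123 CPM in WT, and their part was not tested. Receptors that use other JAKs gave 2 of 10 lower in V617F CD41-negative cells, Il21r (69.8 ± 2.82 CPM in V617F against 145 ± 38 CPM in WT, adjusted p = 0.00673) and the trace transcript Il9r, and 0 in the other populations. Over these lists the median log2 change in CD41-negative cells was -0.16 for further JAK2 receptors, -0.02 for receptors of other JAKs, -0.26 for ligands, -0.22 for kinases and STATs and 0.10 for inhibitors, beside -0.01 over all genes.

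Between the CD41 fractions more of these genes passed, as did more of all genes (16.4% higher and 17.9% lower in V617F, 15.7% higher and 18.2% lower in WT). Of 11 kinases and STATs, 7 were lower in CD41-positive cells and 0 higher in each genotype, among them Stat3 (250 ± 23.4 against 443 ± 23 CPM in V617F, log2 -0.83, adjusted p = 0.00151, edgeR). Of 10 receptors that use other JAKs, 6 were lower in V617F and 4 in WT with 0 higher, led by the common gamma chain Il2rg (73.5 ± 8.41 against 219 ± 13.5 CPM in V617F, log2 -1.57, adjusted p = 6.24e-06). Of 11 further JAK2 receptors, 1 was higher and 3 lower in V617F, and 2 were higher and 2 lower in WT, shares near those of all genes. Ifngr2, the signalling partner of Ifngr1, was lower in both, at 16 ± 2.63 against 38.1 ± 3.25 CPM in V617F (log2 -1.25, adjusted p = 0.000623) and 16.7 ± 1.87 against 42.4 ± 12.7 CPM in WT (log2 -1.35, adjusted p = 0.00168). Of the genes listed as inhibitors, 1 was higher and 8 lower in V617F, and 1 higher and 5 lower in WT. The higher one in WT was Ptpn11 (log2 0.55), a phosphatase whose role is not only inhibitory. Sh2b3, an adaptor that restrains these receptors, stood at 42.3 ± 5.87 against 116 ± 10.9 CPM in V617F (log2 -1.45, adjusted p = 0.000154, edgeR). Of 5 ligands, 1 was higher and 2 lower in each genotype. Between MkP and LT-HSC in V617F, 2 inhibitors were lower (Ptpn6 and Socs2) and no other gene of these lists passed; in WT 2 further JAK2 receptors, 1 receptor of other JAKs, 1 kinase and 3 inhibitors were lower and 0 higher.

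The receptors also differed in how they moved with each other over libraries, which is given as a description since libraries share group and depth. Over the 11 CD41-fraction libraries log2 levels of Csf3r and Il6st had r = 0.95, and those of Csf2rb and Csf2rb2 r = 0.92. Over the 12 MkP and LT-HSC libraries these values were 0.39 and 0.84. Epor ran against Csf3r, with r = -0.83 in the CD41 fractions and -0.50 in MkP and LT-HSC, and against Csf2rb2, with -0.86 and -0.62.

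Genes most like each receptor were ranked by the lower of the Pearson correlations over the 12 and the 11 libraries, among 8679 genes with a mean of at least 10 CPM in both protocols. For Epor these were led by Dolpp1 (r = 0.90 and 0.95), a lipid phosphatase of the endoplasmic reticulum, and Gfi1b (0.88 and 0.97), a repressor needed for red cells and platelets. Csf3r was most like Thsd1 (0.94 and 0.98) and Anxa6 (0.94 and 0.95), Il3ra most like Poll (0.94 and 0.95) and Csf2ra most like Hexa (0.91 and 0.86), a lysosomal enzyme. Csf2rb was followed by Elovl5 (0.88 and 0.90) and Ggt5 (0.85 and 0.90), and Csf2rb2 by the ectonucleotidase Entpd1 (0.96 and 0.95) and Ggt5 (0.90 and 0.97). Il6st was most like Idua (0.93 and 0.93) and Chst15 (0.93 and 0.95), Il6ra most like Atp6v0a1 (0.89 and 0.82), and Ifngr1 most like Il10rb (0.82 and 0.83), a receptor chain for IL-10. With Spearman correlations 11 of 27 such genes stayed on the list.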

How the data were processed

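The authors deposited whole-number counts for each gene, with transcript lengths, per the file headers. The submitters' processing notes name STAR 2.5.2a, mm10, R 3.4.2 and limma; no source used here gives the counter or the gene annotation. Of 24454 identifiers, 24374 matched RefSeq and 11 have no symbol.

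Each protocol was fitted apart in R 4.3.3 with edgeR 4.0.16, using TMM scaling, filterByExpr (14281 genes left in SMART-Seq v2, 14467 in v4), a mean for every group and the quasi-likelihood test. Benjamini-Hochberg adjustment ran over all genes of a contrast. Genes with an adjusted p under 0.05 are said to rise, fall, pass or be called. The fit was tested on simulated data. CPM relate counts to the TMM-scaled total, and CPM per kb divide by the deposited length. The SE of a log2 value is its size over the square root of F. Correlations use log2 CPM with a prior count of 3. Binomial intervals cover counting error only.

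Alternatives were DESeq2 1.42.0, limma-voom (limma 3.58.1), RLE scaling, the unfiltered table, at least 5 CPM in 3 libraries, and fitting only the groups compared. Others were leaving out each library or both male CD41-fraction libraries, sex as covariate, and the replicate number as a block. Leaving out both CD41-negative WT libraries 1 and 3, and summing the beta chains, were chosen after seeing the data. The receptors and lists were chosen with earlier results of these data known. The text names the 9 receptors in every comparison, genes among the 3 most alike for each, and up to 4 passing genes of each list by smallest adjusted p. Some receptors and genes are not reported here. V617F CD41-fraction libraries of equal number had residuals correlated at r = 0.301, 0.419 and 0.298 across genes, so these numbers were taken as pairs; other groups sharing numbers did not reach 0.1 in every pair.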

Additional observations from a re-analysis of the deposited data

How the results depend on the processing

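Of the receptor changes called, 0 of 288 values changed direction over the alternatives, and 43 lost the call. Among values not called, 62 of 1036 changed sign and 26 became called. The number of receptors called was 1 with DESeq2 in LT-HSC (0 in the edgeR fit), and 3 with DESeq2, 1 with limma-voom and 1 with only the groups compared in MkP (0). In CD41-negative cells it was 1 with only the groups compared and 1 without both male libraries (3), and from 0 to 5 over single omissions. In CD41-positive cells it was 2 without both male libraries (1), and 0 to 2 over single omissions. Between MkP and LT-HSC it was 1 with DESeq2 in WT and 0 to 1 over omissions (0), and in V617F 0 with limma-voom, 5 with only the groups compared and 0 in every omission (1). Between the CD41 fractions of WT it was 5 with only the groups compared, 5 without CD41-negative libraries 1 and 3, and from 3 to 7 over omissions (8). For the difference of V617F changes between CD41 fractions it was 0 to 1 over omissions (0). Counts over all genes moved further. DESeq2 called 623 genes in LT-HSC (9 in the edgeR fit), 1383 in MkP (250), 3318 in CD41-negative cells (1941), 441 in CD41-positive cells (168), 2985 and 767 between MkP and LT-HSC in WT and V617F (1271 and 156), and 630 and 6 in the interactions (65 and 0). Limma-voom called 316, 878 and 306 in LT-HSC, MkP and between the V617F populations. With only the groups compared the counts were 0 in LT-HSC, 762 in MkP, 269 in CD41-negative and 520 in CD41-positive cells, 14 and 2972 between MkP and LT-HSC in WT and V617F, and 2028 between CD41 fractions in WT (4917). Single omissions gave 0 to 23 in LT-HSC, 46 to 415 in MkP, 282 to 6021 in CD41-negative and 32 to 170 in CD41-positive cells, 31 to 52 between V617F MkP and LT-HSC, 1215 to 7082 between CD41 fractions in WT, and 0 to 219 and 0 to 1766 in the interactions. Without a filter CD41-positive cells gave 262, and without both male libraries CD41-negative cells gave 366.

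With the replicate number as a block, 7 receptors were called between CD41 fractions in V617F (6), 8 in WT (8; Il6ra added, Ifngr1 lost) and 0 in the interaction. In groups whose numbers do not pair, the block gave 4 between genotypes in CD41-negative cells (Il6st added, adjusted p = 0.0176, edgeR), 1 in CD41-positive cells and 0 between WT MkP and LT-HSC. Over all genes it moved calls to 3983 of 14467 from 1941 in CD41-negative cells, and to 5 from 1271 between WT MkP and LT-HSC. An omission that leaves 1 library in a group assumes that it varies like the other groups. Groups of 2 or 3 libraries, the wide spread in MkP and LT-HSC and 0 counts of receptors in single WT libraries limit what can be called there.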
